A study of Homo sapiens with 3 samples.

Results

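Hypoxia response and glycolysis genes were followed on 3 culture substrates in HT29 cells, a widely used line that was established from a human colon adenocarcinoma. The 40 genes were chosen by name from the pathways they belong to: 16 enzymes of the glycolytic chain, 6 transporters of glucose or lactate and regulators of glycolytic flux, 16 other targets of the hypoxia-inducible factors (HIF), and the HIF alpha subunits HIF1A and EPAS1. They are 40 of the 21624 genes that could be named on the arrays. The cells were grown on tissue culture polystyrene (TCP), on membranes of chitosan (CS), a polysaccharide derived from chitin, or on chitosan membranes grafted with hyaluronan (CSHA), the glycan ligand of the receptor CD44. The cell line was the same on all substrates, no drug, genetic change or low-oxygen treatment is named for these samples, and the length of culture before RNA extraction for the arrays is not given in the sources used here. The paper reports that HT29 cells formed spheroids on CS and CSHA and were attached, with an epithelial form, on TCP. Growth form and substrate therefore cannot be told apart in these data. Each substrate is represented by 1 culture on 1 single-colour array, so differences have no replicate check and no test was made. CS and CSHA are both set against the same TCP array, so an unusual signal there enters both differences.

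Glycolysis splits glucose into pyruvate in the cytosol, and lactate dehydrogenase and the lactate exporters carry the flow on when pyruvate is not oxidized in mitochondria. HIF is a dimer of an oxygen-sensitive alpha subunit and the constant partner ARNT. Where oxygen is plentiful, prolyl hydroxylases (EGLN1 to EGLN3) mark the alpha subunit for degradation through VHL. In low oxygen the dimer binds short DNA elements and raises the transcription of most glycolytic enzymes together with genes of pH control, vessel growth, mitophagy and collagen processing. Colon cancer cells are known for high glycolytic flux also in ample oxygen, through MYC and PI3K signaling, and these enzymes are therefore under several controls besides HIF.

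On CSHA the glycolytic enzymes and the other HIF targets lay apart. The median log2 difference of the enzymes from TCP was -0.31, which became 0.12 when arrays were scaled to their spike-in probes, and the median of the other HIF targets was higher by 0.51. The lowest enzymes were HK1 and ENO1, at -1.21 and -0.999, and the highest targets were NDRG1 and BNIP3L, at 1.23 and 0.88. On CS the same groups stood closer together, with medians of -0.09 and 0.26, of which the enzyme median became 0.13 when arrays were centred on their detected probes. Over all genes compared, the median was 0.13 on CSHA and 0.04 on CS. In a list of 23 further hypoxia-induced genes, 15 were compared, with medians of 0.17 on CSHA and 0.09 on CS. On CSHA the 9 enzymes with a processed signal of at least 10000 on TCP had a median of -0.32, and the 6 dimmer ones -0.01. A positive difference means a higher signal than on TCP throughout, and 1 log2 unit is a change of 2-fold.

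Each value is the log2 signal of a gene's brightest probe minus the 75th percentile of its array, so 0 is that percentile. Such levels can be compared between arrays for a gene, and not between genes, since probes differ in how strongly they bind. Of the 40 genes, 39 were matched to a probe, and ALDOA, the main aldolase, was not. All 3 arrays measured 37 of them well above background. The remaining pair, SLC2A3, a glucose transporter, and BNIP3, a mitophagy receptor, were not well above background on any array. Their readings on TCP, CS and CSHA were -5.80, -6.26 and -5.87 for SLC2A3 and -5.05, -6.37 and -5.96 for BNIP3, and no fold is given for them.

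The arrays had 48.6% (TCP), 51.1% (CS) and 49.9% (CSHA) of probes well above background, no saturated spot, and shared 1 slide. All 8 epithelial markers examined, among them EPCAM and KRT20, were well above background on every array. Their medians were 0.19 (CS minus TCP) and 0.61 (CSHA minus TCP), against 0.04 and 0.13 over all genes compared. On CSHA 7 of 8 were higher, against 61.7% of all genes, and CEACAM5 was the highest of them at 2.16. Of 7 stromal markers, 2 (SPARC and VIM) were dimly measured on TCP and none on the membranes, with summed signals of 92, 47 and 35. Of 7 immune and endothelial markers, 6, 5 and 6 were above background with summed signals of 426, 475 and 458, against 329214 or more for the epithelial list. Of the immune markers, CD68 stood at 1.01 and CD3E at -1.75 on CSHA. Whether these signals have a part in any difference below was not tested.

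HIF binds a core of 5 letters, ACGTG or GCGTG, and promoters are shown for 4 enzymes and 3 other HIF targets, chosen after their values were seen so that higher and lower genes appear with and without ACGTG. Each window runs from 250 bases before to 50 bases after an annotated start site, is taken from RefSeq on GRCh38.p14, and is printed along the gene's strand. Capitals mark this core on either strand, and a match on the opposite strand appears as CACGT or as CACGC. Where a core overlaps its own complement, as in ANKRD37, it is counted on each strand. ANKRD37 (chr4:185396591-185396890, plus strand) and CA9 (chr9:35673678-35673977, plus strand) were higher on both membranes, and ADM (chr11:10304823-10305122, plus strand) stood at 0.43 on CSHA. Of the enzymes, PGK1 (chrX:78103998-78104297, plus strand) was higher on both, while PFKP (chr10:3068939-3069238, plus strand), ENO1 (chr1:8878637-8878936, minus strand) and PKM (chr15:72231141-72231440, minus strand) were among the lowest on CSHA. PFKP has 4 windows, of which the one with ACGTG is shown, and the others have 1.
ANKRD37: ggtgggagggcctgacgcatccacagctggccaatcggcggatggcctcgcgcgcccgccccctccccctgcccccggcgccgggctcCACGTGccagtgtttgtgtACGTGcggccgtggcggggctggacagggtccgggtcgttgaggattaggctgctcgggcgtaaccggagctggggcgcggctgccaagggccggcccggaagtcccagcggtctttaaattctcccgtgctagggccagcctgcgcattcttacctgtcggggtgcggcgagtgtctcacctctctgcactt
CA9: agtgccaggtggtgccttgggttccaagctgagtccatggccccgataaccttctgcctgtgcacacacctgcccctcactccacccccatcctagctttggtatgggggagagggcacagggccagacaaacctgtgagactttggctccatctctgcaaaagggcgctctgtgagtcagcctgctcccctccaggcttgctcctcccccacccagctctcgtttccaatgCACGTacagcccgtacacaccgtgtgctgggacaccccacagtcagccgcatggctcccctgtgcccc
ADM: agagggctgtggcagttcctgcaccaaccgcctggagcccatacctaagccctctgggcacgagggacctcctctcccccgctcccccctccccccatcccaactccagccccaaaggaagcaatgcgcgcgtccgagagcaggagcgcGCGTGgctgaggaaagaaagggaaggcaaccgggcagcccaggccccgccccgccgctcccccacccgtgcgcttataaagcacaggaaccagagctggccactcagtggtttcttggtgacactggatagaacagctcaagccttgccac
PGK1: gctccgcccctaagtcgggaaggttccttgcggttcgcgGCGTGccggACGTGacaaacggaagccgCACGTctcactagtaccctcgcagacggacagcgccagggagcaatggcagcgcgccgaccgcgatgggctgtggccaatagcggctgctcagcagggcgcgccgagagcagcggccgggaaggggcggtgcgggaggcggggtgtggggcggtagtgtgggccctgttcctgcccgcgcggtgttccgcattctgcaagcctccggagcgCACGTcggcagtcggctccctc
PFKP: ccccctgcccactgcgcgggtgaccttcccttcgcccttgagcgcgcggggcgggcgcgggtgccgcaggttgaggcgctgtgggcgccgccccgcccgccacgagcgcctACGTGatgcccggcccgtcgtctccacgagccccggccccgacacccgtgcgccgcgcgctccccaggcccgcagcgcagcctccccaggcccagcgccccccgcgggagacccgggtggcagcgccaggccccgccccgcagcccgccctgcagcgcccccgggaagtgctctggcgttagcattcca
ENO1: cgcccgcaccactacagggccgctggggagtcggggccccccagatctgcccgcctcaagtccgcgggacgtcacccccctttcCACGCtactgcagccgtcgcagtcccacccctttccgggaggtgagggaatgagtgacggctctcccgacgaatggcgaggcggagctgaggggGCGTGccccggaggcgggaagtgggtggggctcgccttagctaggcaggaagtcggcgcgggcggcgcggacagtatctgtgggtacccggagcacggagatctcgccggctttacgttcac
PKM: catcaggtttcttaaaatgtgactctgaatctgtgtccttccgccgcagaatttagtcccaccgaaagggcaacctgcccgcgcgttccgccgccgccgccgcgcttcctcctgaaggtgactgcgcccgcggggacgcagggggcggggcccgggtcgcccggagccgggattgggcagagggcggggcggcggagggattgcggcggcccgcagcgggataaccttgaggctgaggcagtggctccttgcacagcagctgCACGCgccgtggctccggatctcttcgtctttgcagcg
ANKRD37 had 3 matches, PGK1 had 4, CA9 had 1 at -18 from the start site, and PFKP had 1 at -139, with the ACGTG form in each. ADM had 1 match at -101, ENO1 had 2 and PKM had 1, with no ACGTG in these windows. Higher and lower genes appear here with and without ACGTG because the windows were chosen that way, so no conclusion on direction is drawn from them.

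Windows were read for 36 of the genes, without SLC2A3, VEGFA, BNIP3L and NDRG1, and a gene can have several. The ACGTG or GCGTG core stood in 68.2% of the members' 66 windows, against 48.4% of all 35116 windows. ACGTG alone stood in 39.4% of the members' windows and in 21.4% of all windows. By role, ACGTG was found in a window of 11 of 16 glycolytic enzymes and of 8 of 13 other HIF targets. It was found for 24.9% of all genes with a window, and genes with several windows have more chance of a match. The ACGTG or GCGTG core was found for 15 of 16 enzymes and 11 of 13 other HIF targets, against 52.4% of all genes. The split that follows is by ACGTG alone, and most enzymes without ACGTG had a GCGTG match. Among the enzymes that were compared, the 10 with ACGTG ranged from -0.97 to 0.45 on CSHA with a median of 0.01, and the 5 without it (HK1, PFKL, PGAM1, ENO1 and PKM) ranged from -1.21 to -0.25 with a median of -0.97. Among the other HIF targets, the 7 with ACGTG had a median of 0.57 and the 5 without it had 0.23. These splits were made after the differences were known and have no test, and a match of letters is not a measured binding site.

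**Figure D1:**
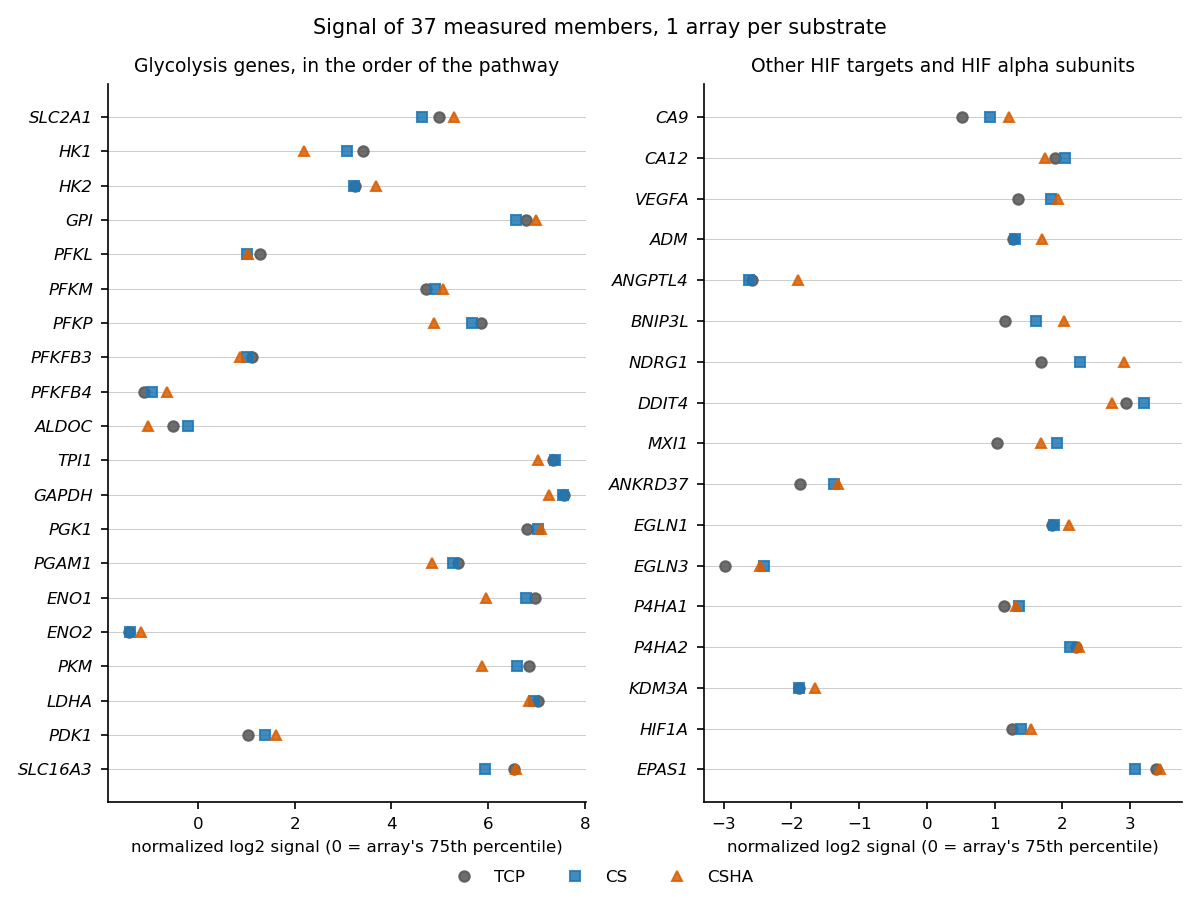
Normalized log2 signal of the 37 measured genes on the TCP (circle), CS (square) and CSHA (triangle) arrays, with 1 point per array and no error bar; 0 on the horizontal axis is the 75th percentile of an array. The CSHA points of HK1, PFKP, ENO1 and PKM lie to the left of the other arrays, and that of NDRG1 lies to the right.

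Glucose uptake was represented by SLC2A1 (GLUT1), the transporter that carries glucose into most cultured cells. Its normalized log2 level read 4.97, 4.63 and 5.29 on TCP, CS and CSHA, the order used for all genes below, a difference of -0.34 on CS and of 0.32 on CSHA. The membranes thus lay on opposite sides of TCP and differed from each other by 0.66. At the other end of the chain, SLC16A3 (MCT4), which exports lactate, read 6.53, 5.94 and 6.58. SLC16A3 was the lowest of all members on CS, at -0.60, and stood at 0.05 on CSHA.

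The hexokinases, which trap glucose by phosphorylation, went in opposite directions on CSHA. HK1, the form found in most tissues, read 3.40, 3.07 and 2.19, and its CSHA signal was 0.432 of that on TCP. HK2, the form induced in many tumors and by HIF, read 3.24, 3.22 and 3.69, which is 0.45 above TCP on CSHA. GPI, the isomerase that follows, read 6.78, 6.57 and 6.99.

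Phosphofructokinase commits the sugar to glycolysis, and its 3 genes differed among themselves. The platelet form PFKP read 5.85, 5.67 and 4.89, a difference of -0.97 on CSHA. The muscle form PFKM read 4.72, 4.90 and 5.07 and was higher on both membranes, by 0.19 and 0.35. The liver form PFKL read 1.29, 1.02 and 1.03, with the membranes alike and below TCP, although spike-in scaling turned its CSHA difference to 0.17. PFKFB3 and PFKFB4 make or remove fructose 2,6-bisphosphate, the activator of phosphofructokinase, and stood at -0.23 and 0.46 on CSHA, with levels of 1.11, 1.02 and 0.87 for PFKFB3 and of -1.11, -0.95 and -0.65 for PFKFB4.

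The steps from aldolase to phosphoglycerate kinase were mixed. ALDOC, a brain-type aldolase, read -0.51, -0.21 and -1.03, so that CS stood above TCP and CSHA below it. TPI1, which interconverts the triose phosphates, read 7.33, 7.37 and 7.03, and GAPDH, which oxidizes glyceraldehyde 3-phosphate and often serves as a reference gene, read 7.57, 7.54 and 7.25. GAPDH was printed in 10 spots per array, with ranges of 7.50 to 7.68 (TCP), 7.50 to 7.62 (CS) and 7.21 to 7.29 (CSHA). The TCP and CS spots thus overlapped, while every CSHA spot lay below them, although scaling to the spike-in probes turned the CSHA differences of GAPDH and TPI1 to 0.11 and 0.12. PGK1, which makes the first ATP of the chain, was the exception here, with 6.81 (SD 0.046 over 10 spots), 7.02 (SD 0.024 over 10 spots) and 7.08 (SD 0.038 over 8 spots). Its spots on both membranes lay above all TCP spots.

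The later steps of the chain held 3 of the larger negative differences on CSHA. PGAM1, a phosphoglycerate mutase, read 5.38, 5.28 and 4.83, a difference of -0.55. ENO1, the common enolase, read 6.96, 6.78 and 5.96, just short of 2-fold lower on CSHA. ENO2, the neuronal enolase that HIF also induces, was dim and read -1.42, -1.41 and -1.19. PKM, the pyruvate kinase of most proliferating cells, read 6.85, 6.59 and 5.88, which is -0.97 on CSHA. LDHA, which turns pyruvate into lactate, read 7.03, 6.95 and 6.85 on its brightest probe, or -0.09 and -0.19 from TCP. PDK1, a HIF target that blocks pyruvate dehydrogenase, read 1.03, 1.39 and 1.60 and was higher on both, by 0.36 and 0.57.

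Across the 15 enzymes measured, 10 were lower and 5 were higher than TCP on either membrane, where 56.8% (CS) and 61.7% (CSHA) of all genes were higher. Other scalings put 12 enzymes higher on CS (median of detected probes), with 81.7% of all genes, and 9 higher on CSHA (spike-in probes), with 84.1% of all genes. On CS they ranged from HK1 at -0.33 to ALDOC at 0.31, and none reached 1.5-fold. On CSHA they ranged from HK1 to HK2, and 4 of 15 (HK1, PFKP, ENO1 and PKM) were at least 1.5-fold lower, where 11.2% of all genes were. None was at least 1.5-fold higher, against 11.5% of all genes. Between the membranes, 5 of 15 enzymes were at least 1.5-fold lower on CSHA than on CS, against 7.33% of all genes, with ALDOC joining the 4 named above.

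**Figure D2:**
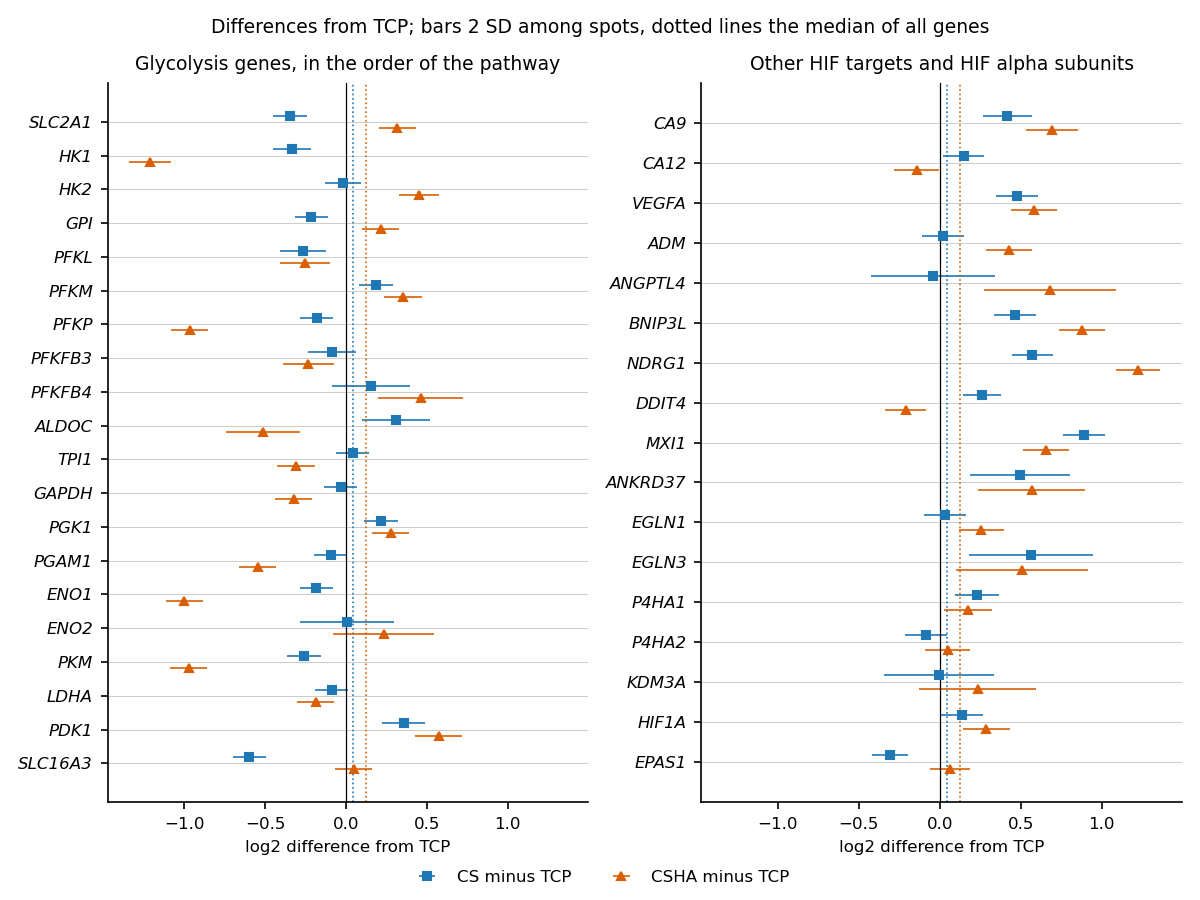
Log2 difference from TCP of each measured gene on CS (squares) and CSHA (triangles), with glycolysis genes on the left in pathway order and the other HIF targets and HIF alpha subunits on the right; bars are 2 SD among spots of like brightness and do not include differences between cultures, and dotted lines mark the median of all genes. Triangles reach from -1.21 (HK1) to 0.57 (PDK1) on the left and from -0.21 (DDIT4) to 1.23 (NDRG1) on the right.

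Among the other HIF targets, the pH regulator CA9 and the secreted factors stood mostly above TCP. CA9, a membrane carbonic anhydrase often used as a marker of hypoxia, read 0.52, 0.94 and 1.22, or 0.42 and 0.70 above TCP. CA12, a related carbonic anhydrase of the colon epithelium, read 1.89, 2.04 and 1.75 and did not follow it. VEGFA, the angiogenic growth factor, read 1.35, 1.83 and 1.93 on its brightest probe, while its second probe gave -1.53 on CSHA. ADM, a vasodilator peptide, read 1.28, 1.30 and 1.70. Its 10 spots spanned 1.20 to 1.35 (TCP), 1.16 to 1.41 (CS) and 1.59 to 1.83 (CSHA), so that only the CSHA spots lay apart. ANGPTL4, a secreted inhibitor of lipoprotein lipase, was dim and read -2.58, -2.63 and -1.90, which is 0.68 above TCP on CSHA and -0.04 on CS.

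The highest member on each membrane was found among the targets. NDRG1, a gene induced by hypoxia and differentiation, read 1.68, 2.25 and 2.91, and its signal relative to TCP was 2.34-fold on CSHA, the highest there. BNIP3L (NIX), a receptor for mitophagy, read 1.15, 1.61 and 2.03. For both genes CS lay between TCP and CSHA. MXI1, a MAX partner that opposes MYC, read 1.03, 1.92 and 1.69 and was the highest member on CS, at 0.89. DDIT4 (REDD1), an inhibitor of mTORC1, read 2.94 (SD 0.039), 3.20 (SD 0.036) and 2.73 (SD 0.17) over 10 spots each. DDIT4 was thus higher on CS and lower on CSHA, where spike-in scaling turned it to 0.22, and its CSHA spots ran from 2.35 to 2.86, below the TCP spots at 2.87 to 3.01 by a narrow margin. ANKRD37, a small ankyrin protein, read -1.87, -1.38 and -1.31 and was higher on both membranes.

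Of the hydroxylases that use oxygen, the HIF prolyl hydroxylases EGLN1 and EGLN3 are themselves HIF targets. EGLN1 read 1.84, 1.88 and 2.10, and EGLN3 read -2.98, -2.41 and -2.47. EGLN3 was dim, with a spot SD of 0.19 for its difference of 0.57 on CS. The collagen prolyl hydroxylases P4HA1 and P4HA2 lay within 0.23 of TCP on both membranes, with 1.13, 1.36 and 1.31 for P4HA1 and 2.20, 2.11 and 2.24 for P4HA2. KDM3A, a histone demethylase, read -1.88, -1.89 and -1.65.

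The HIF alpha subunits are controlled mainly through protein stability, which the arrays do not measure. HIF1A read 1.25 (SD 0.064), 1.39 (SD 0.042) and 1.54 (SD 0.081) over 10 spots each, or 0.14 and 0.29 above TCP. EPAS1 (HIF-2 alpha) read 3.38, 3.07 and 3.44, lower on CS by -0.31 and at 0.07 on CSHA.

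Of the 15 other HIF targets measured, 12 were higher than TCP on CS and 13 on CSHA, against 5 of 15 enzymes on each and 56.8% and 61.7% of all genes. On CSHA, 5 of 15 (CA9, BNIP3L, NDRG1, ANGPTL4 and MXI1) were at least 1.5-fold higher, against 11.5% of all genes, and none was 1.5-fold lower, against 11.2%. On CS the count was 1 of 15 (MXI1) higher, against 4.11% of all genes. SLC16A3 was the 1 member at least 1.5-fold lower on CS, against 5.04%. At 2-fold, CSHA held NDRG1 above (3.04% of all genes) and HK1 below (3.98%), and CS held none, where 1.36% of genes were higher and 1.92% lower.

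**Figure D3:**
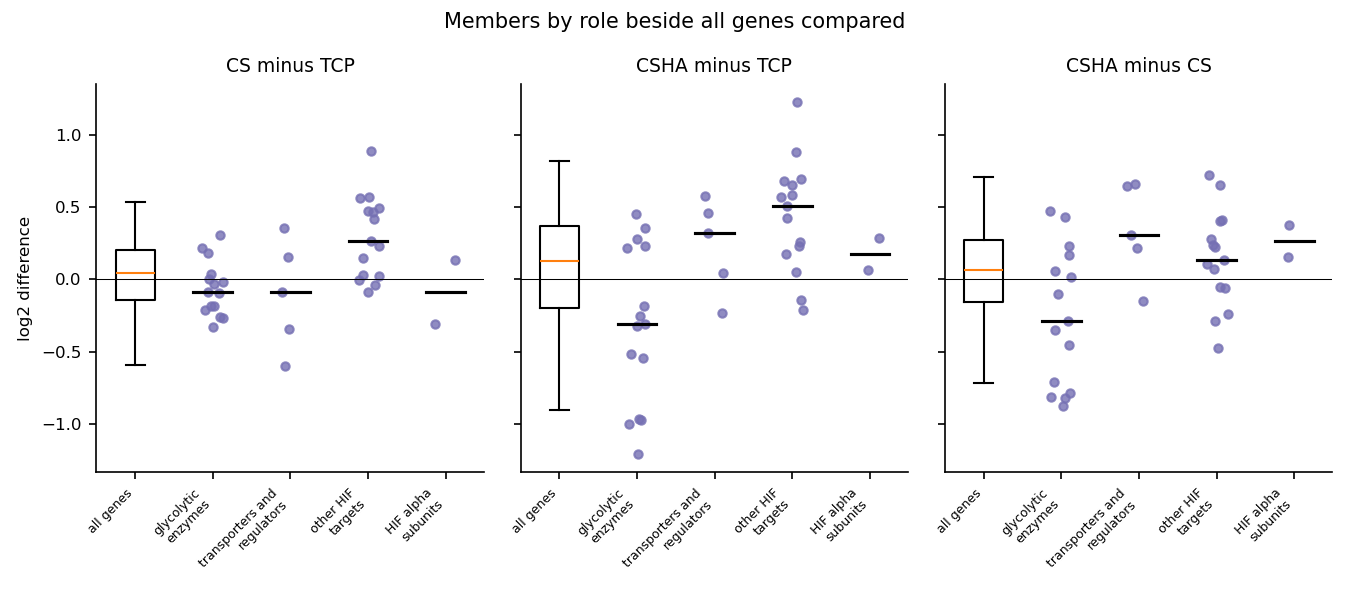
Log2 differences for CS minus TCP, CSHA minus TCP and CSHA minus CS; the box gives the median and quartiles of all genes compared with whiskers at the 5 and 95 percentiles, points are single genes of each role and thick lines their medians. The enzyme median lies below and the median of the other HIF targets above that of all genes in each panel.

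The distance between the medians, enzymes minus other HIF targets, was -0.35 on CS, -0.82 on CSHA and -0.42 between CSHA and CS. The CS minus TCP and CSHA minus TCP values share the TCP array and are no independent repeats. Of the 15 enzymes, 12 lay under the median of all genes on CS and 10 on CSHA, while 10 and 12 of the 15 other HIF targets lay above it. In the direct comparison of the membranes, the members' median was 0.11 and 22 of 37 were higher on CSHA, against 58.5% of all genes. The other HIF targets then had a median of 0.13, and ANGPTL4 (0.72) and NDRG1 (0.65) were at least 1.5-fold higher, as were SLC2A1 (0.66) and SLC16A3 (0.64), where 7.70% of all genes were. None of the 37 differed 2-fold between the membranes, against 2.29% of genes higher and 2.15% lower.

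The SD among spots of like brightness was carried to a difference, with a median over members of 0.06 on CS and 0.07 on CSHA. By that measure, 24 of 37 differences on CS and 32 of 37 on CSHA lay beyond 2 spot SD, where 51.0% and 67.5% of the 13488 genes measured on all arrays did. Cultures, RNA extraction and labelling add error that repeated spots do not show.

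The enzymes were mostly brighter than the other HIF targets. With a processed signal of at least 10000 on TCP, 9 enzymes had a median of -0.32 on CSHA and -0.09 on CS, while the 1282 genes as bright stood at 0.08 and 0.04. The 6 dimmer enzymes had medians of -0.01 on both membranes. On CSHA 3 of these were higher and 3 lower, from HK1 at -1.21 to HK2 at 0.45. No other HIF target was that bright. The part of brightness in the distance between the groups was not tested.

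Some genes were measured by more than 1 probe, which gives a second reading of the gene. For PFKP, TPI1, VEGFA and MXI1, a further probe is listed under another transcript than the brightest, so it need not measure the same RNA. For the 9 members with at least 2 measured probes, all probes had the same sign for 8 on CS and 7 on CSHA. Over 3500 such genes, only the 2 brightest probes were compared, and they had the same sign for 65.9% on CS and 60.4% on CSHA. By that measure MXI1 too had the same sign on CSHA, at 0.65 and 1.08. The 2 brightest probes of a gene lay 0.32 apart at the median on CSHA. PFKP was lower on CSHA on its second probe too, at -0.72, as were PGAM1 at -1.26 and LDHA at -0.77. The second probe of BNIP3L stood at 0.27 and that of HIF1A at 0.54. For MXI1, the second probe gave 1.08 on CSHA and the third, which is listed under another transcript, gave -0.11. VEGFA was unlike the rest. Its second probe, for another transcript, read -0.06, 0.06 and -1.59, which is -1.53 on CSHA where the brightest probe gave 0.58. The direction of VEGFA on CSHA therefore depends on the probe. HK1, ENO1, PKM, NDRG1 and CA9 had 1 probe each, so their values have no such second reading. GAPDH, TPI1, PGK1, PGAM1, ENO1 and LDHA have processed pseudogenes of like sequence, and a share of their signal from these was not tested.

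**Figure D4:**
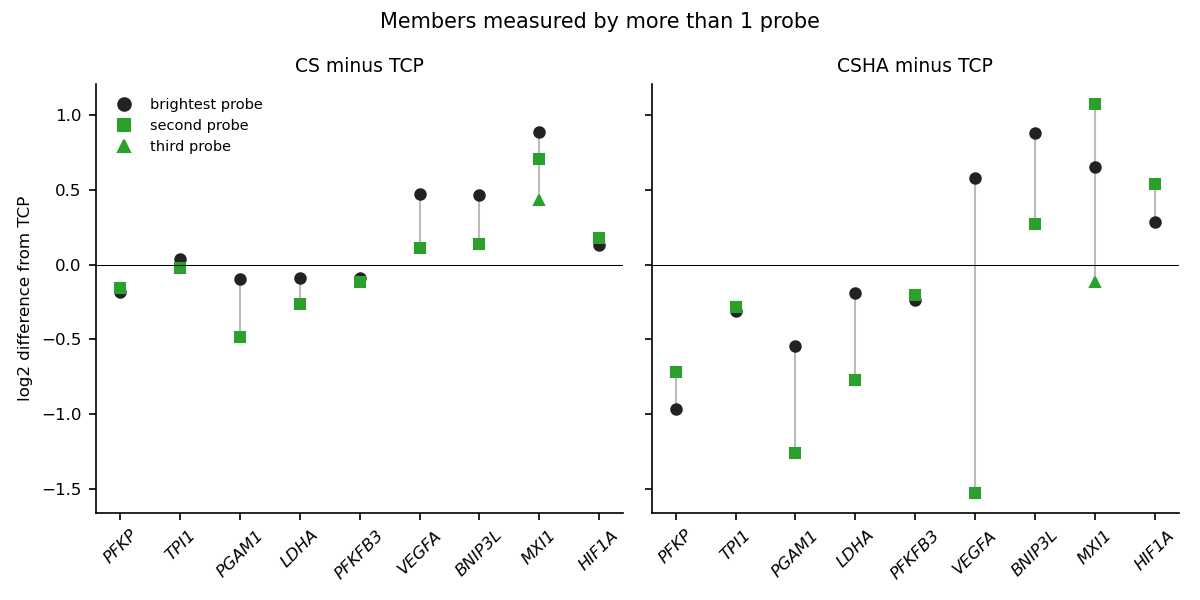
Log2 difference from TCP on each probe of the 9 genes with at least 2 measured probes, on CS (left) and CSHA (right), with the brightest probe in black and the others in green, joined by a grey line for each gene. The VEGFA probes lie on opposite sides of 0 on CSHA, at 0.58 and -1.53.

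The directions also depend on what the arrays are scaled to. The medians of the enzymes and of the other HIF targets move together when all genes of an array are shifted alike. Their distance, -0.82 on CSHA and -0.35 on CS in the main setting, therefore cannot change under such scalings. The filter to genes detected on all arrays cannot change it either. Among the 9 alternatives, those that could change the distance put it from -0.78 to -0.63 on CSHA and from -0.43 to -0.25 on CS. The sign of the enzyme median itself was not held: scaled to the 7 spike-in probes it became 0.12 on CSHA, where the median of all genes rose to 0.56. Under that scaling 84.1% of all genes were higher than TCP on CSHA, as were 9 of 15 enzymes and 15 of 15 other HIF targets. Of the enzymes, HK1, PFKP, PGAM1, ENO1, PKM and ALDOC were lower on CSHA under all 10 settings. The enzymes HK2, GPI, PFKM, PGK1 and ENO2 were higher under all 10. Of the other HIF targets, NDRG1, BNIP3L, CA9, MXI1, ADM, ANKRD37, EGLN1, EGLN3, P4HA1, KDM3A and ANGPTL4 were higher under all 10. So were SLC2A1, PFKFB4, PDK1 and HIF1A, while CA12, VEGFA, DDIT4 and P4HA2 changed sign. A filter to genes detected on all arrays, or no filter on dim probes, cannot change these values. The mean over probes cannot change those of genes with 1 measured probe. The spike-in probes themselves differed by 0.21 on CS and by -0.50 on CSHA from TCP before any scaling.

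**Figure D5:**
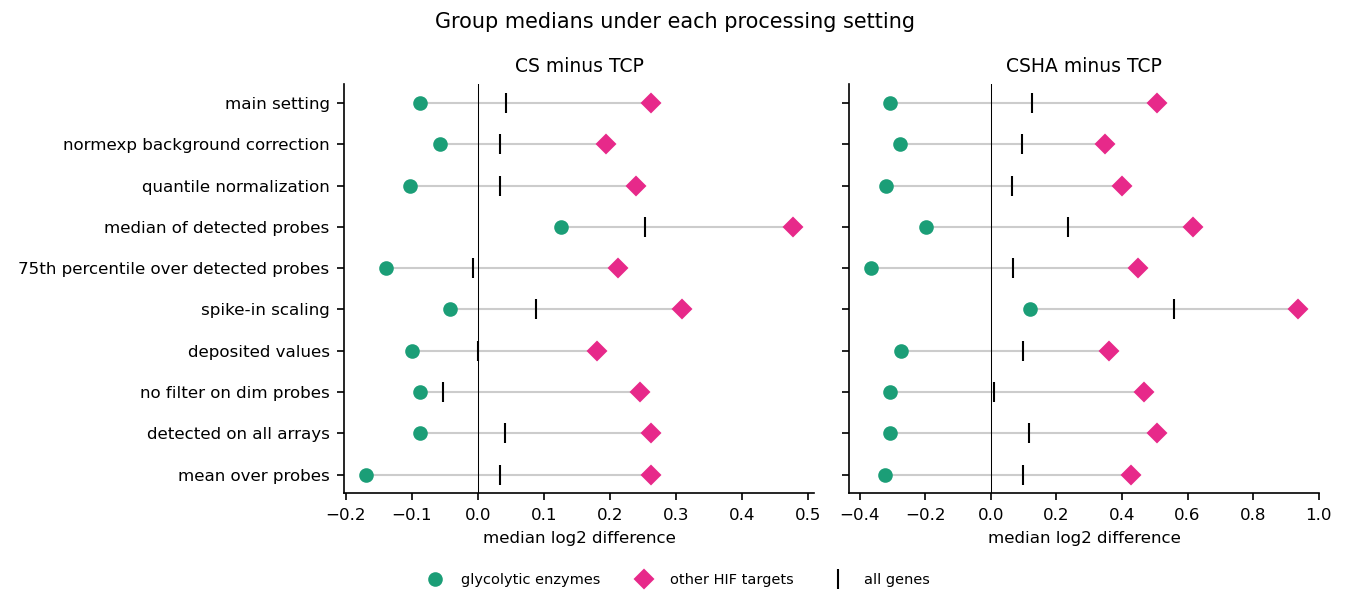
Median log2 difference from TCP of the glycolytic enzymes (circles), the other HIF targets (diamonds) and all genes compared (ticks) on CS (left) and CSHA (right) under the main setting and 9 alternatives, with grey lines joining both groups. The circle lies left of the diamond throughout, although scalings that shift all genes of an array alike cannot change their distance. Circles cross 0 on CS when arrays are centred on their detected probes (0.13) and on CSHA with spike-in scaling (0.12).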

How the data were processed

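Single-colour arrays of HT29 cells from TCP, CS and CSHA, 1 per substrate, were used. The authors deposited scanner output with an intensity for every spot (Feature Extraction 10.7.3.1, per the file headers), not normalized between arrays, and a table of shifted and centred log2 values. The methods name another software version, and other RNA and labelling kits than the sample records. Their floor of 1 and 75th percentile shift were applied to the processed, background-corrected signal. Controls and spots with an outlier flag (264 to 359 spots per array) were omitted, and repeated spots were averaged.

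Of 50599 probes, 30020 (59.3%) were matched by accession to a symbol in a RefSeq table (GRCh38.p14), which serves for names and promoter windows only, and 20579 were not used. The brightest probe stood for a gene. A gene was compared where at least 1 of both arrays measured it well above background, with a bound where only 1 did. The number of arrays limits the precision, and no test was made.

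The members and the further pathway lists were chosen with earlier results of these data known. Named are all 40 members and, of each further list, the highest and lowest gene on each membrane among those measured on all arrays, with ARNT, VHL, EGLN2 and HIF1AN. Not every gene that this rule selects is reported here. The spread of a difference comes from 902 probes printed 10 times, in 8 bins of brightness. Alternatives were normexp (offset 50, on the median spot signal) and quantile normalization in limma 3.58.1 and R 4.3.3, 3 other scalings, the deposited values, 2 other filters, and the mean over probes. Calculations ran in Python 3.11.15, numpy 2.4.6 and pandas 2.3.3 and were tested on simulated data.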

Additional observations from a re-analysis of the deposited data

How the results depend on the processing

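With 1 array per substrate, no array could be left out. No paired analysis was possible because each condition has 1 array. The median over the members, 0.02 on CS, 0.23 on CSHA and 0.11 between the membranes, became 0.24, 0.34 and 0.0011 when arrays were centred on the median of their detected probes, and 0.66 (CSHA) and 0.49 (CSHA minus CS) with spike-in scaling. The enzyme median took the other sign at 0.13 on CS with the median of detected probes, and at 0.12 on CSHA and 0.093 between the membranes with spike-in scaling. Relative to all genes it was then -0.13, -0.44 and -0.36. These scalings shift all genes of an array alike, so they could hardly change that value. The enzyme median moved without a change of sign to -0.17 on CS with the mean over probes, to -0.20 (median of detected probes) and -0.37 (75th percentile over detected probes) on CSHA, and to -0.39 between the membranes (median of detected probes).

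The median of the other HIF targets on CS was 0.19 with normexp, 0.48 with the median of detected probes and 0.18 with the deposited values. On CSHA it was 0.35 (normexp), 0.40 (quantile), 0.62 (median of detected probes), 0.94 (spike-in), 0.36 (deposited values) and 0.43 (mean over probes). Between the membranes it was 0.0295 (median of detected probes) and 0.52 (spike-in). The distance between both groups on CS was -0.25 (normexp), -0.28 (deposited values) and -0.43 (mean over probes), on CSHA -0.63 (normexp), -0.72 (quantile) and -0.63 (deposited values), and between the membranes -0.51 (normexp).

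For the counts that follow, the share of all genes past 2-fold was taken in the main setting only. It was 3.04% higher and 3.98% lower on CSHA, and 11.5% and 11.2% at 1.5-fold. With spike-in scaling the median of all genes on CSHA rose from 0.13 to 0.56. Changes of these counts between scalings are therefore not read as a result about the members. Members at least 2-fold higher on CSHA numbered 1, and 7 with spike-in scaling or 5 at 1.5-fold. Those at least 2-fold lower on CSHA numbered 1, and 3 (normexp), 4 (quantile), 4 (75th percentile over detected probes), 0 (spike-in), 3 (deposited values) or 4 (at 1.5-fold). On CS there were none, against 1 higher with the median of detected probes or at 1.5-fold, and 1 lower without a filter or at 1.5-fold. Between the membranes there were none, against 4 higher with spike-in scaling or at 1.5-fold, and 5 lower at 1.5-fold. The split of members higher and lower on CS was 20 to 17 (56.8% of all genes higher), and became 31 to 6 (81.7%) with the median of detected probes, 16 to 21 (48.7%) with the 75th percentile over detected probes and 24 to 13 (63.5%) with spike-in scaling. With spike-in scaling it went from 24 to 13 (61.7%) to 31 to 6 (84.1%) on CSHA, and from 22 to 15 (58.5%) to 30 to 7 (86.8%) between the membranes, so the members moved with all genes. Of 999 values of single members under the alternatives, 58 changed sign, and none of these was 1.5-fold or more in the main setting. VEGFA on CSHA lay just under that cut, at 0.58, and became -0.47 with the mean over probes. The 2 other filters return the main value for the members compared, so their part of the 999 could not change sign. The cause of these shifts was not tested. Dim members such as EGLN3, ANGPTL4 and ENO2 are limited by signal over background.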

Other observations

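Genes around the HIF system showed single large differences in place of a shared one. The medians of all genes compared, 0.04 on CS and 0.13 on CSHA, are the background for every list below. Of 13 genes for HIF partners and HIF degradation, 11 were compared on CS with a median of 0.07, and 12 on CSHA with a median of 0.19. ARNT, the HIF partner, read -1.45 on TCP, -0.46 on CS and -1.19 on CSHA, close to 2-fold higher on CS alone. VHL, which targets HIF alpha for degradation, read 5.34, 5.01 and 4.28, a difference of -1.06 on CSHA. CITED2, a HIF-induced inhibitor of HIF, read -0.32, 0.09 and 0.41 and was the highest on CSHA of those measured on all arrays. HIF1AN, the asparaginyl hydroxylase of HIF, stood at 0.13 on CS and -0.26 on CSHA, and EGLN2 at -0.07 and 0.00. In the list of 23 further hypoxia-induced genes, 15 were compared, with medians of 0.09 on CS and 0.17 on CSHA. These lay nearer to the medians of all genes than to those of the other HIF targets, 0.26 and 0.51. ANKZF1, a factor of ribosome quality control, read 0.30, 0.29 and -0.93, the lowest of that list on CSHA. PLOD2, a collagen lysyl hydroxylase, read 2.08, 2.45 and 2.71, the highest there, while PLOD1, of the same family, stood at -0.43 on CS and -0.62 on CSHA. BHLHE40, a transcriptional repressor, read -2.61, -2.22 and -2.21 and was the highest of the list on CS.

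The pathways that branch off glycolysis were mixed, beside medians of all genes of 0.04 on CS and 0.13 on CSHA. All 7 genes of the pentose phosphate pathway were measured, with medians of 0.16 on CS and 0.19 on CSHA. PGD, which makes NADPH and ribulose 5-phosphate, read 4.17, 4.18 and 2.99, a difference of -1.17 on CSHA. PGLS, the lactonase that acts before PGD, went the other way at 5.01, 5.42 and 5.86. Of 8 genes of gluconeogenesis, 5 were compared, with medians of 0.04 on CS and -0.50 on CSHA. SLC37A4, the transporter of glucose 6-phosphate into the endoplasmic reticulum, read 2.31, 2.52 and 1.25. FBP1, the phosphatase that opposes phosphofructokinase, was higher on both membranes, at 0.31 and 0.53, and G6PC3 was the lowest of that list on CS at -0.15. The 28 genes of pyruvate oxidation and the citrate cycle had medians of 0.15 and 0.12. PDK4, a kinase that blocks pyruvate dehydrogenase as PDK1 does, read -0.22, 0.28 and 0.60, and IDH3B, a subunit of isocitrate dehydrogenase, was at -0.17 on CS and -1.09 on CSHA. DLST, a subunit of the oxoglutarate dehydrogenase complex, was the lowest of the list on CS, at -0.42. The other isoenzymes and regulators of glycolysis, 10 of 18 compared, had medians of -0.03 and 0.07, from LDHC at -0.76 to SLC16A1 at 0.19 on CS, and from LDHC at -0.64 to PFKFB2 at 0.33 on CSHA. All of these values come from single arrays and have no test.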
